A study of Homo sapiens with 6 samples.

Results

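Macroautophagy is the route by which a cell wraps part of its own cytoplasm in a double membrane, the autophagosome, and delivers it to the lysosome for breakdown. A kinase complex starts the process, a lipid kinase marks the membrane, lipid carriers enlarge it, a ubiquitin-like conjugation system attaches ATG8 proteins (the LC3 and GABARAP families) to it, and cargo receptors tie the material to be degraded to these ATG8 proteins. In liver cells the pathway turns over mitochondria, protein aggregates and stored nutrients. Here, the transcripts of 41 genes of this core machinery and its receptors were examined in the 28563 genes of the RNA-seq table. The genes were listed by name, matched to Ensembl identifiers through GENCODE release 44, and all 41 were found.

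The RNA came from cells labelled as HepG2, a line established from a human liver tumour, after 24 h with polydatin (PD), a plant glucoside of resveratrol, or with its vehicle DMSO. The PD dose is 336 µM in the sample labels, and the paper's methods give a somewhat lower one. There were 3 libraries of PD-treated cells and 3 of DMSO-treated cells, 1 per culture dish, and all dishes were otherwise untreated, so the results describe 1 cell line at 1 dose and 1 time. Worked back from the deposited values, the DMSO libraries held 16763318 to 17274927 fragments each and the PD libraries 16308476 to 18071632. Nothing in the labels says that the dishes came from separate cultures. The paper's methods describe replated cells whose dishes were assigned at random to control or treatment, and mention no separate cultures. The p-values thus measure the spread between these dishes, which may be technical. Of 18 hepatocyte markers that were looked up, 10 were among the genes analysed and 3 reached 1 FPKM in any library, namely CPS1, FOXA1 and RBP4. HNF4A, a defining hepatocyte factor, had a mean of 0.0486 FPKM in DMSO, and ALB and AFP were not among the genes analysed here. CPS1, an enzyme of the urea cycle, went from 225 FPKM in DMSO to 109 in PD. Of 5 epithelial markers looked up, the keratins KRT8 and KRT18 were at 50.1 FPKM and 46.5 FPKM in DMSO. EPCAM had a mean of 1.17 FPKM in DMSO, CDH1 was near 0 at 0.127 FPKM, and KRT19 was not among the genes analysed. Most of the 10 hepatocyte markers were thus at or near 0, which goes against a hepatocyte-like identity of these cells. The name HepG2 is used as the labels give it, and the identity of the line was not tested. No endothelial or leukocyte marker reached 1 FPKM, and of the fibroblast markers COL1A1 did, at 3.46 FPKM in DMSO and 3.45 in PD. The mitochondrial genome gave 3.16% to 3.17% of the fragments of each DMSO library and 3.72% to 3.89% of those of each PD library. The part of this shift in the results was not tested.

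Core autophagy genes were found higher and lower in PD, in shares near or below those of all tested genes. The changes past 2-fold were a rise of the cargo receptor SQSTM1 and a fall of the ATG8 gene GABARAPL1. Expression is given in FPKM, the fragments of a gene scaled by the length of its exons and by the fragments of its library. Changes are differences of log2(FPKM + 1), PD minus DMSO, a scale on which the folds of poorly expressed genes come out too small. The differences were tested by limma over the 14400 genes that averaged 0.5 FPKM or more, with Benjamini-Hochberg adjusted p of at most 0.05 as the threshold. Of the 41 genes, 40 were tested, and GABARAP was below this minimum. Of these 40, 15 were higher and 6 were lower in PD, where 31.9% of all tested genes were higher and 26.2% were lower. These 15 make 37.5% of the 40 genes, and the 6 make 15.0%. With the 2-fold threshold of the study added, applied on the log2(FPKM + 1) scale, 1 gene was upregulated and 1 was downregulated, against 2.04% and 1.57% of all tested genes. The 3 PD libraries lay wholly above or wholly below the 3 DMSO libraries in 27 of the 40 genes (67.5%), close to the 65.4% of all tested genes. The median log2 fold change of the 40 genes was 0.11, and that of all tested genes was 0.01. When libraries were scaled by their upper quartile, 12 of the genes were higher and 9 were lower, because WIPI2, ATG3 and ATG4B were no longer called and BECN1, ATG9A and ATG2B were called lower. Libraries were made from bulk RNA, so fewer cells of a type and less RNA per cell cannot be told apart.

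**Figure D1:**
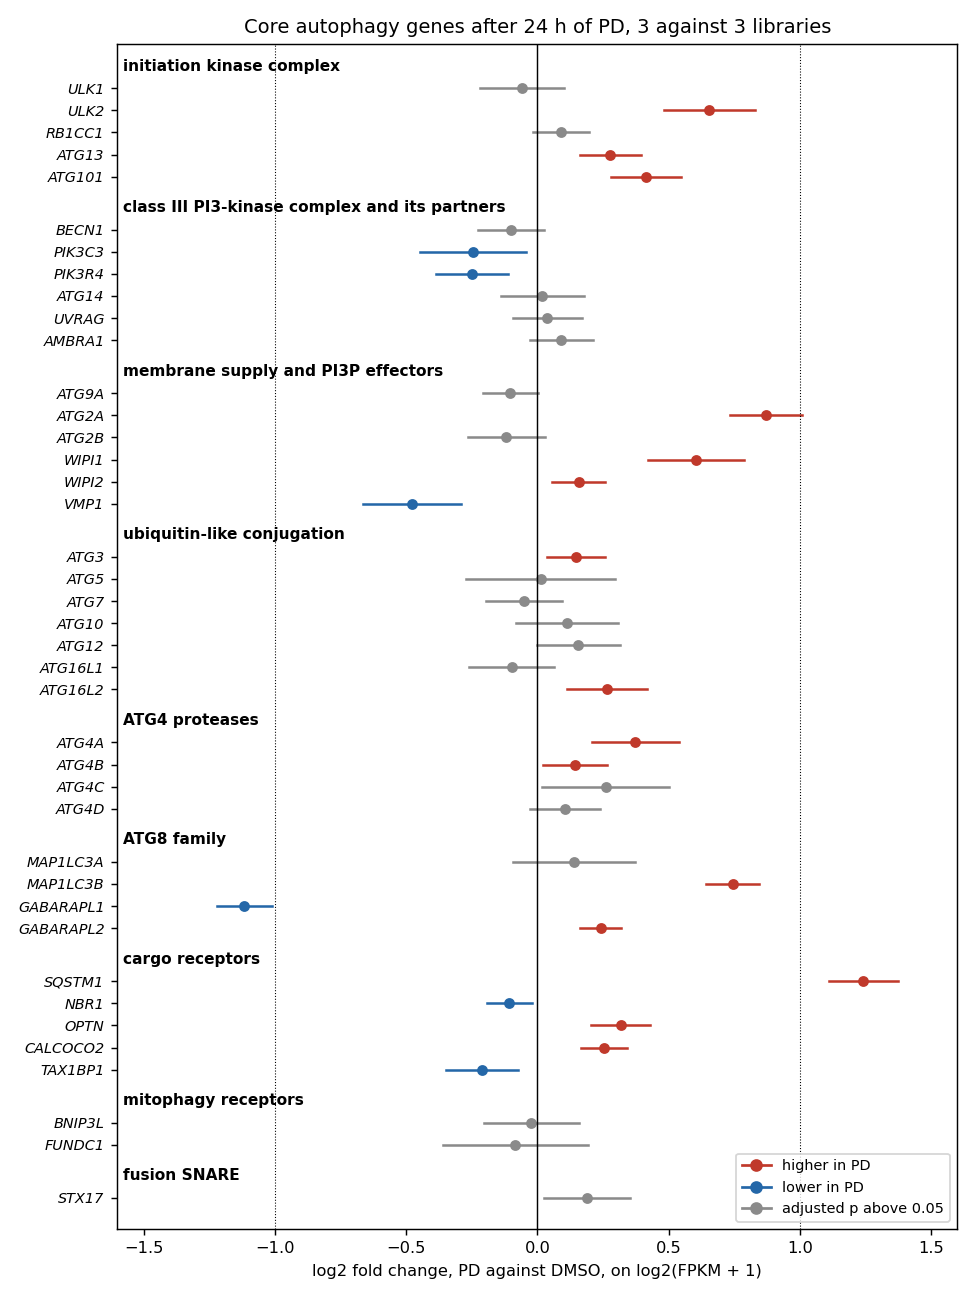
Change of each tested core autophagy gene, grouped by role. Points are log2 fold changes of PD against DMSO on log2(FPKM + 1), bars are 95% intervals from limma with 3 libraries per treatment, and dotted lines mark 2-fold. SQSTM1 at 1.24 and GABARAPL1 at -1.12 lie beyond the dotted lines, and the points of the other 38 genes lie between them.

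The promoters of the genes with the most marked changes among the receptors and ATG8 genes are shown first, because the results turn on these genes. The windows are the 250 bases before the RefSeq start site on GRCh38.p14, all on the plus strand, and for SQSTM1, which has 3 annotated starts, the start farthest 3′ was taken. SQSTM1 (chr5:179820655-179820904) and MAP1LC3B (chr16:87392086-87392335) rose, whereas GABARAPL1 (chr12:10212627-10212876) fell. Capitals mark the GC box GGGCGG, the cAMP response element TGACGTCA and the antioxidant response element core TGACNNNGC, each on either strand.
SQSTM1: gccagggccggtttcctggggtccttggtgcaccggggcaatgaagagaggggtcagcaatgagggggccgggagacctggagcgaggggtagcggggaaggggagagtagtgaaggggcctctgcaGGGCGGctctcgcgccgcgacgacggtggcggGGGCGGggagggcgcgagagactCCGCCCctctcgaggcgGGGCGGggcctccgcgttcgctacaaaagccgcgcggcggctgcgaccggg
GABARAPL1: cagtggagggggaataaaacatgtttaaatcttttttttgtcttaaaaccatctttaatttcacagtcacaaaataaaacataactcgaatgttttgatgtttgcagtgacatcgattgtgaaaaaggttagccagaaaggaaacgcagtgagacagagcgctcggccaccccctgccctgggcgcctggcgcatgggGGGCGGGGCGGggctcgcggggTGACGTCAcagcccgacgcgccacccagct
MAP1LC3B: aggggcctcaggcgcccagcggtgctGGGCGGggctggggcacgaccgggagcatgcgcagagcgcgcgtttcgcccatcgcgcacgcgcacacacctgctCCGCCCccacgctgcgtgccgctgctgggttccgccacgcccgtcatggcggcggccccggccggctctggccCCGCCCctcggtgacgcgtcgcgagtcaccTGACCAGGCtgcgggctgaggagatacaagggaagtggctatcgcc

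The SQSTM1 window is rich in G and C (73.6%) and holds 4 GC boxes, and the MAP1LC3B window (74.8%) holds 3. The GABARAPL1 window is less so (51.6%), with 2 GC boxes that share a base. GABARAPL1 was the sole autophagy gene of the 35 with a RefSeq window that held the cAMP response element, which starts 30 bases before its start site. This element was present at 2.03% of the 27305 genes with a window. The antioxidant response element core was present at 3 of the 35 autophagy genes (8.57%), MAP1LC3B, ATG101 and CALCOCO2, and at 13.2% of all genes. These 3 are among the 15 of the 35 that were higher in PD. The E-box CACGTG was found at ATG3 and ATG14 (7.73% of all genes), the FOXO element GTAAACA at CALCOCO2 (3.66%), and TGATGNAA at none (3.89%). GC boxes stood at 25 of the 35 autophagy genes and at 46.2% of all genes. These elements were chosen after the sequences had been read, and a match describes the letters in these windows only.

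Cargo receptors bind ubiquitinated or otherwise marked material with one end and ATG8 proteins with the other, and they are themselves degraded with their cargo. All 5 receptors were called, 3 as higher (60%) and 2 as lower (40%) in PD, against 31.9% and 26.2% of all tested genes. SQSTM1 encodes p62, a receptor for ubiquitinated proteins that also binds KEAP1, and is annotated on GRCh38 at chromosome 5, bases 179806398 to 179838078. It had 82.8, 73.4 and 80.9 FPKM in the DMSO libraries and 178, 198 and 188 FPKM in the PD libraries. Every PD library was far above every DMSO library. The mean rose 2.38-fold, from 79.0 ± 4.96 to 188 ± 9.86 FPKM (SD, n = 3 each), which is a log2 fold change of 1.24 (SE of 0.06, adjusted p of 5.35e-06, limma). It was the most highly expressed of the 41 genes in both groups, with up to 26564 fragments in a library. The exons of MRNIP, on the opposite strand, cover 21.0% of the exon bases of SQSTM1, and the library kit does not mark strand. MRNIP itself was far lower, at 3.13 to 3.84 FPKM in DMSO and 4.12 to 4.86 FPKM in PD. MGAT4B, also on the opposite strand, covers 1.39% of these bases. It was at 28.5 to 30.7 FPKM in DMSO and 35.7 to 36.1 FPKM in PD.

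OPTN encodes optineurin, which takes part in the clearance of mitochondria and bacteria. It had 18.5, 16.96 and 16.8 FPKM in DMSO and 21.2, 22.2 and 22.5 FPKM in PD, a log2 fold change of 0.32 (adjusted p of 0.00104, limma). CALCOCO2, which encodes NDP52, a receptor for bacteria and mitochondria, was at 8.51, 8.51 and 8.56 FPKM in DMSO and at 10.4, 10.4 and 10.3 FPKM in PD. Its spread within groups was the smallest of the receptors, and its log2 fold change was 0.25 with an adjusted p of 0.000836 (limma). The other two receptors fell by small amounts. TAX1BP1, a paralog of CALCOCO2 that binds ubiquitinated aggregates, had 18.5, 19.1 and 16.7 FPKM in DMSO and 16.2, 14.9 and 15.4 FPKM in PD (log2 fold change -0.21, adjusted p of 0.0162, limma). NBR1, which works beside p62 on ubiquitinated proteins and peroxisomes, had 19.9, 20.2 and 19.3 FPKM in DMSO and 18.6, 17.9 and 18.4 FPKM in PD (log2 fold change -0.11, adjusted p of 0.0379, limma). For both, the groups did not overlap, but neither call held in every fit without 1 library. That of TAX1BP1 was lost without PD replicate 2, DMSO replicate 1 or DMSO replicate 2 (adjusted p of 0.0516 to 0.0577), and that of NBR1 without any library other than DMSO replicate 3 (adjusted p of 0.0539 to 0.116).

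As a result, the receptor transcripts changed in composition. Summed over the 5 genes they came to 138 to 148 FPKM in DMSO and 245 to 263 FPKM in PD. SQSTM1 made up 55.3% ± 1.95 of this sum in DMSO and 74.0% ± 1.15 in PD (SD, n = 3 each). NBR1 went from 13.9% to 7.21% and TAX1BP1 from 12.7% to 6.11% of the sum. OPTN and CALCOCO2 rose in FPKM, but their shares of the sum were smaller in PD, at 8.62% against 12.2% for OPTN and 4.08% against 5.97% for CALCOCO2.

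ATG8 proteins are conjugated to phosphatidylethanolamine on the growing membrane, where they recruit receptors and help the autophagosome to close and fuse. Of the 5 ATG8 genes, 2 rose, 1 fell, 1 was not called and GABARAP was not tested. Over all tested genes, 31.9% were higher and 26.2% were lower. GABARAPL1, on chromosome 12 from 10212458 to 10223128, was the highest ATG8 transcript in DMSO by the deposited values, with 58.1, 63.5 and 60.7 FPKM. In PD it had 27.8, 26.3 and 28.3 FPKM, far below every DMSO library. The mean went from 60.8 ± 2.71 to 27.5 ± 1.06 FPKM (SD, n = 3 each), a ratio of 0.452, with a log2 fold change of -1.12 (SE of 0.05, adjusted p of 3.49e-06, limma).

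MAP1LC3B, which encodes LC3B, the usual marker of autophagosomes, went the other way. This gene lies on chromosome 16 from 87383953 to 87404779. It had 22.2, 20.5 and 20.3 FPKM in DMSO and 35.1, 36.1 and 36.2 FPKM in PD. The PD libraries lay close together and all above DMSO, a 1.70-fold rise of the mean, with a log2 fold change of 0.74 (SE of 0.04, adjusted p of 1.23e-05, limma). Its close copy MAP1LC3B2, with which it may share reads, had 1.12 to 1.93 FPKM in DMSO and 2.78 to 3.16 in PD, a log2 fold change of 0.67. GABARAPL2, also called GATE-16, had 18.3, 17.7 and 18.0 FPKM in DMSO and 21.4, 21.1 and 21.6 FPKM in PD, a log2 fold change of 0.24 (adjusted p of 0.00066, limma). MAP1LC3A, which encodes LC3A, had 2.43, 2.64 and 3.22 FPKM in DMSO and 2.92, 2.95 and 3.55 FPKM in PD, and these ranges overlapped (adjusted p of 0.263, limma). GABARAP was near 0 in all libraries, at 0.0766, 0.0790 and 0.155 FPKM in DMSO and 0.122, 0.151 and 0.108 FPKM in PD. That is 3 to 6 fragments per library, so no fold is given. A gene on the opposite strand shares 250 bases (12.8%) of its exons, and a further annotated gene, not among those analysed, overlaps them too. Whether the counting of overlapping exons set this level was not tested.

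**Figure D2:**
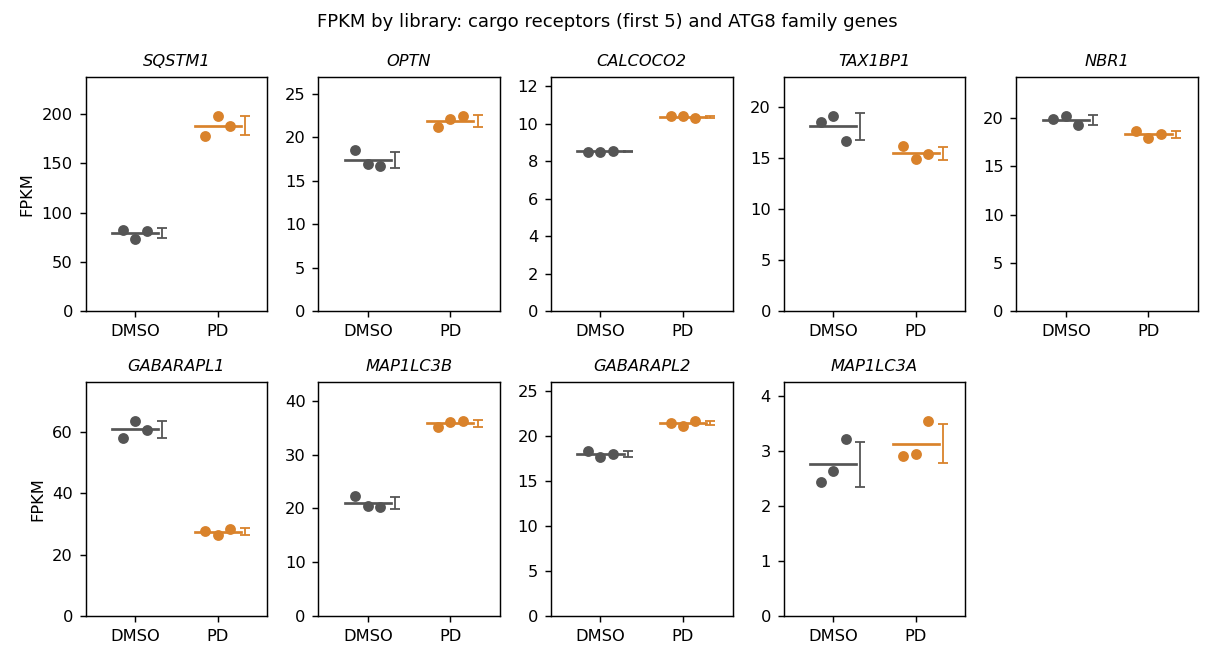
FPKM in each library for the 5 cargo receptors and the 4 ATG8 genes with measurable levels. Points are libraries, horizontal lines are group means and error bars are SD (n = 3), and every axis starts at 0. SQSTM1 and MAP1LC3B were higher and GABARAPL1 was lower in every PD library than in any DMSO library, whereas the MAP1LC3A points overlap.

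The opposite changes of GABARAPL1 and MAP1LC3B exchanged their order. In the sum of the 5 ATG8 genes, GABARAPL1 held 59.2% ± 1.69 in DMSO and 31.2% ± 0.780 in PD, and MAP1LC3B held 20.5% ± 1.31 in DMSO and 40.7% ± 0.824 in PD (SD, n = 3 each). GABARAPL2 went from 17.5% to 24.3% of the sum. The sum itself was lower in PD, with 86.6 to 89.9 FPKM against 101 to 104 FPKM in DMSO. GABARAP, near 0 in the deposited values, adds almost nothing to these sums. The sums and shares therefore depend on its level being measured rightly, which was not tested. Among all 41 genes, GABARAPL1 was 2nd by mean FPKM in DMSO and 3rd in PD, while MAP1LC3B was 5th in DMSO and 2nd in PD.

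**Figure D3:**
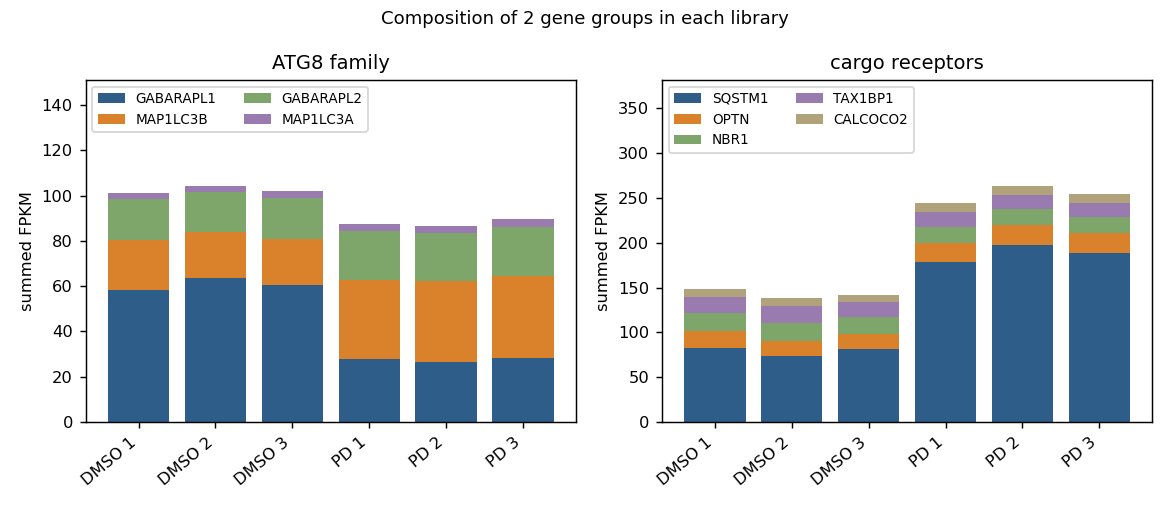
Summed FPKM of ATG8 genes (left) and cargo receptors (right) in each of the 6 libraries, stacked by gene, with GABARAP left out because it is below 0.2 FPKM. In PD the MAP1LC3B segment is larger than that of GABARAPL1, and SQSTM1 accounts for most of the greater height of the receptor bars.

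The ULK complex, made of the kinase ULK1 or ULK2 with RB1CC1 (FIP200), ATG13 and ATG101, receives signals from mTORC1 and AMPK and starts the process. In it, 3 of 5 genes (60%) were higher in PD and none was lower, against 31.9% and 26.2% of all tested genes. ULK2, on chromosome 17 from 19770829 to 19867936, had 1.453, 1.69 and 1.63 FPKM in DMSO and 3.30, 2.83 and 3.10 FPKM in PD. All PD libraries were above all DMSO libraries, a 1.94-fold rise of the mean. On the FPKM + 1 scale this was a log2 fold change of 0.65 (SE of 0.07, adjusted p of 0.000236, limma). Limma voom on the fragments, which adds no such pseudocount, gave 0.95. ULK1 was the more abundant kinase gene, with 24.3, 24.2 and 25.0 FPKM in DMSO and 21.5, 23.0 and 26.2 FPKM in PD. Its PD libraries lay on both sides of the DMSO libraries (log2 fold change -0.06, 95% interval -0.22 to 0.10, limma). ULK2 therefore made up 6.10% ± 0.438 of the ULK1 and ULK2 sum in DMSO and 11.6% ± 1.49 in PD (SD, n = 3 each). ATG101 and ATG13, which bind each other and stabilise the complex, rose by log2 fold changes of 0.41 and 0.28 (adjusted p of 0.000612 and 0.00216, limma), from means of 15.2 to 20.6 FPKM and of 14.9 to 18.3 FPKM. RB1CC1, the scaffold, was not called, at 12.8 to 13.6 FPKM in DMSO and 13.5 to 14.7 in PD (95% interval of the log2 fold change -0.02 to 0.20).

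The class III PI3-kinase complex makes the lipid PI3P on the membrane. None of its 6 genes rose and 2 (33.3%) were lower in PD, the regulatory subunit PIK3R4 (VPS15) and the catalytic subunit PIK3C3 (VPS34). Over all tested genes, 31.9% were higher and 26.2% were lower. PIK3R4, on chromosome 3 from 130678934 to 130746829, had 11.2, 11.9 and 10.8 FPKM in DMSO and 10.0, 8.89 and 9.06 FPKM in PD. The groups did not overlap, with a log2 fold change of -0.25 (SE of 0.06, adjusted p of 0.00817, limma). PIK3C3 was the lowest of the tested genes, with 1.19, 1.34 and 1.08 FPKM in DMSO and 0.857, 0.8004 and 0.909 FPKM in PD. Its log2 fold change was -0.25 (adjusted p of 0.0421, limma), and -0.49 by voom on fragments. The PIK3C3 call was lost without any library other than DMSO replicate 3 (adjusted p of 0.0699 to 0.131).

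The partners that direct this kinase to autophagy or endosomes showed no call. BECN1 (Beclin 1) had 5.94, 5.69 and 5.47 FPKM in DMSO and 5.37, 4.97 and 5.40 FPKM in PD, just without overlap, with a 95% interval of the log2 fold change from -0.23 to 0.03. ATG14, the autophagy-specific subunit, had a log2 fold change of 0.02 (-0.14 to 0.18), UVRAG, which works at endosomes, had 0.04 (-0.09 to 0.17), and AMBRA1, a regulator of Beclin 1 and ULK1, had 0.09 (-0.03 to 0.21).

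The genes that bring lipids and membrane to the autophagosome moved in both directions, with 3 rises (50%) and 1 fall (16.7%) among 6. Over all tested genes, 31.9% were higher and 26.2% were lower. ATG2A encodes a lipid transfer protein that joins the endoplasmic reticulum to the growing membrane, and lies on chromosome 11 from 64894546 to 64917209. ATG2A had 8.25, 7.29 and 8.02 FPKM in DMSO and 14.6, 16.1 and 14.9 FPKM in PD. It rose in all PD libraries to a mean 1.93 times that of DMSO, with a log2 fold change of 0.87 (SE of 0.06, adjusted p of 2.24e-05, limma). Its paralog ATG2B, with 2.88, 3.15 and 2.78 FPKM in DMSO and 2.73, 2.55 and 2.59 FPKM in PD, was slightly lower without being called (adjusted p of 0.145, limma). It was called with voom on fragments (-0.16, adjusted p of 0.0452). ATG2A made up 72.7% ± 2.52 of the ATG2 sum in DMSO and 85.3% ± 1.04 in PD (SD, n = 3 each).

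WIPI1 and WIPI2 encode PI3P-binding proteins, of which WIPI2 recruits ATG16L1. WIPI1 had 3.22, 2.70 and 3.47 FPKM in DMSO and 5.20, 5.47 and 5.10 FPKM in PD, a log2 fold change of 0.60 (adjusted p of 0.000473, limma). ARSG, on the opposite strand, shares 24.4% of the exon bases of WIPI1 and was at 3.06 to 3.73 FPKM throughout. WIPI2 rose less, from a mean of 12.5 to 14.0 FPKM (log2 fold change 0.16, adjusted p of 0.0154, limma), and was not called under upper-quartile scaling (adjusted p of 0.180). VMP1, a scramblase of the endoplasmic reticulum, was the one gene of the group to fall, with 32.3, 29.9 and 26.2 FPKM in DMSO and 19.5, 20.9 and 22.1 FPKM in PD. The DMSO libraries of VMP1 were widely spread, yet the lowest of them was above the highest PD library, with a log2 fold change of -0.48 (SE of 0.08, adjusted p of 0.00163, limma). The gene lies on chromosome 17 from 59707192 to 59842255. ATG9A, the scramblase of the vesicles that seed the membrane, had 14.5, 15.7 and 15.9 FPKM in DMSO and 14.1, 14.2 and 14.4 FPKM in PD. It did not pass the threshold (log2 fold change -0.10, adjusted p of 0.0813, limma), but passed it without DMSO replicate 1 (adjusted p of 0.0257).

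**Figure D4:**
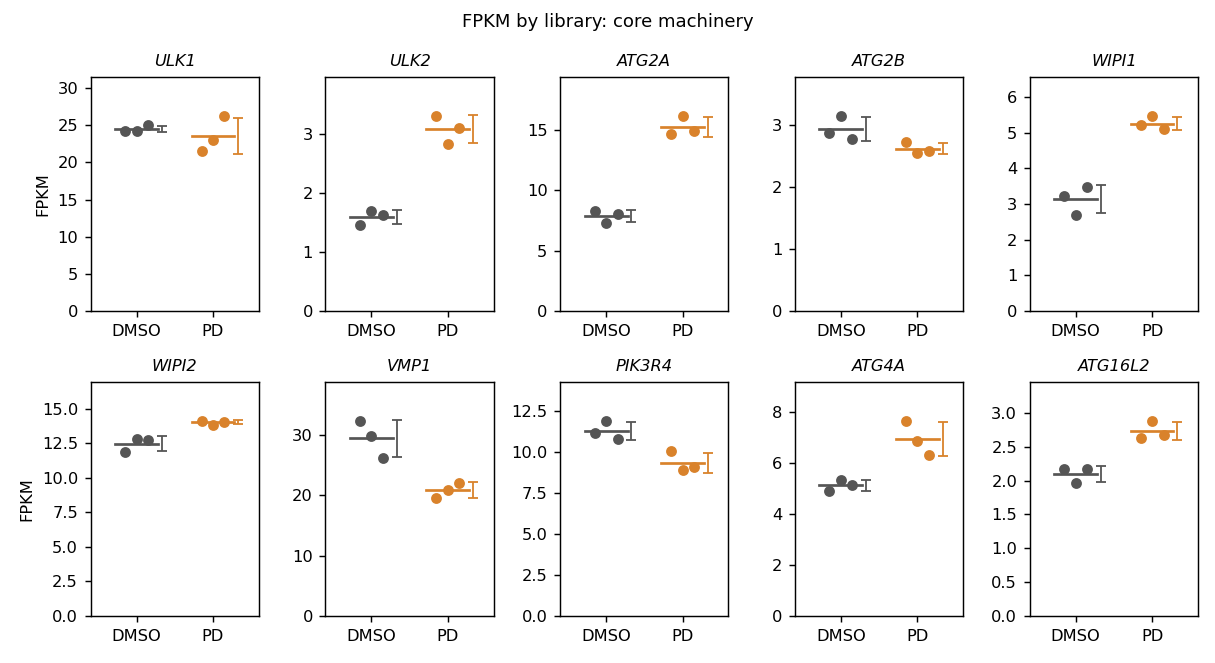
FPKM in each library for 10 genes of the core machinery. Points are libraries, horizontal lines are group means and error bars are SD (n = 3), and every axis starts at 0. ULK2, ATG2A and WIPI1 separate the groups upward and VMP1 and PIK3R4 downward, while the ULK1 libraries overlap.

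Conjugation of ATG8 proteins resembles ubiquitination, with ATG7 as the activating enzyme, ATG3 and ATG10 as conjugating enzymes, and the ATG12–ATG5–ATG16L1 complex in place of a ligase. In this group 2 of 7 genes (28.6%) were higher and none was lower, against 31.9% and 26.2% of all tested genes. ATG16L2, a paralog of ATG16L1, had 2.16, 1.96 and 2.18 FPKM in DMSO and 2.63, 2.88 and 2.68 FPKM in PD, a log2 fold change of 0.27 (adjusted p of 0.00967, limma). Its share of the ATG16L1 and ATG16L2 sum was 20.7% ± 2.15 in DMSO and 26.7% ± 2.17 in PD (SD, n = 3 each). ATG3 had 9.02 to 9.64 FPKM in DMSO and 10.2 to 10.997 in PD (log2 fold change 0.15, adjusted p of 0.0307, limma). This call was lost under upper-quartile scaling (adjusted p of 0.281), under median-of-ratios scaling (0.0589), and without PD replicate 2 (0.102), PD replicate 3 (0.0645) or DMSO replicate 2 (0.0953).

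ATG5, ATG7, ATG10, ATG12 and ATG16L1 were not called. ATG5 had 1.36 to 2.05 FPKM in DMSO and 1.63 to 2.08 in PD, and ATG10 had 1.44 to 1.85 and 1.747 to 1.98, so both of these low genes overlapped between groups. The log2 fold change was 0.01 for ATG5 (95% interval -0.27 to 0.30), -0.05 for ATG7 (-0.20 to 0.10), 0.11 for ATG10 (-0.08 to 0.31) and -0.10 for ATG16L1 (-0.26 to 0.06). ATG12 was above DMSO in every PD library, at 3.79 to 4.03 against 3.05 to 3.64 FPKM, with an adjusted p of 0.0846 (limma), and was called by voom on fragments (0.20, adjusted p of 0.0274).

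ATG4 proteases trim newly made ATG8 proteins and release them from membranes. Of the 4 genes, 2 (50%) were higher in PD, against 31.9% of all tested genes. ATG4A, which prefers GABARAP proteins and is encoded on chromosome X from 108091668 to 108154671, had 4.90, 5.32 and 5.15 FPKM in DMSO and 7.66, 6.88 and 6.31 FPKM in PD. All PD libraries were higher, with a log2 fold change of 0.37 (SE of 0.07, adjusted p of 0.00298, limma). ATG4B, the main LC3 protease, had a log2 fold change of 0.14 (adjusted p of 0.0474, limma), from 5.49 to 6.04 FPKM in DMSO to 6.26 to 6.69 in PD. The ATG4B call was lost under either scaling (adjusted p of 0.0811 and 0.261), without DMSO replicate 1 or 3 and without any of the PD replicates (adjusted p of 0.0687 to 0.130). ATG4C had 4.66 to 6.09 FPKM in DMSO and 6.13 to 7.62 in PD, a log2 fold change of 0.26 (adjusted p of 0.0629, limma), and passed the threshold without DMSO replicate 1 (adjusted p of 0.0397) and by voom on fragments (0.31, adjusted p of 0.0151). ATG4D went from a mean of 8.30 to 8.997 FPKM and overlapped between groups.

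The remaining 3 genes act on mitochondria or at the last step. BNIP3L (NIX), a mitophagy receptor induced by hypoxia, had 13.1 to 15.8 FPKM in DMSO and 12.9 to 14.6 in PD, and FUNDC1, another receptor of the outer mitochondrial membrane, had 8.61 to 10.3 and 8.12 to 11.1. Neither was called, with 95% intervals of the log2 fold change of -0.20 to 0.16 and -0.36 to 0.19. STX17, the SNARE that fuses autophagosomes with lysosomes, had 4.80, 4.43 and 4.17 FPKM in DMSO and 5.21, 5.64 and 4.84 FPKM in PD. The STX17 groups just separated and its adjusted p was 0.0507 (limma), at the edge of the threshold. It passed without PD replicate 3 (0.0391) or DMSO replicate 1 (0.0378), and by voom on fragments (0.0256).

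Across roles, the genes that changed by at least 0.5 on the log2(FPKM + 1) scale were SQSTM1, GABARAPL1, ATG2A, MAP1LC3B, ULK2 and WIPI1, 6 of the 40 tested, whereas 23.1% of all tested genes changed by that much. Changes of at least 0.25 were seen in 14 of the 40 genes and in 52.6% of all tested genes. At both sizes the share of the core autophagy genes was below that of all tested genes. Of the paralogs that gained share within their pair, ULK2, WIPI1 and ATG16L2 were the less abundant member and ATG2A the more abundant one. Exons of 19 of the 41 genes overlap those of another gene among those analysed, on the opposite strand, 10 of them called genes. Exons of ATG101, ATG9A, GABARAPL1 and STX17 overlap those of an annotated gene that was not among those analysed. The values of all these genes are less certain for that reason.

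Another 45 autophagy genes outside the core list, which cover PI3P binding, tethering, fusion and selective receptors, were looked up for comparison. They were chosen with earlier results of these data known, so the shares below describe this list only. Of the 45 genes, 44 were among the genes analysed and 40 were tested. There were 28 higher (70.0%) and 5 lower (12.5%) in PD, where 31.9% of all tested genes were higher and 26.2% were lower. Under upper-quartile scaling 24 were higher and 7 were lower. Without this scaling, the median log2 fold change of these genes was 0.32, against 0.01 over all tested genes. In 34 of the 40 (85.0%) the groups did not overlap, against 65.4% of all tested genes. None passed 2-fold on the log2(FPKM + 1) scale, although the mean FPKM of ZFYVE1 rose 2.31-fold. The largest rises on the FPKM + 1 scale were those of TEX264, a receptor for the endoplasmic reticulum, SNAP29, the SNARE partner of STX17, and ZFYVE1 (DFCP1), which marks the sites where autophagosomes form. TEX264 had 5.86, 5.61 and 6.21 FPKM in DMSO and 11.7, 11.5 and 11.6 FPKM in PD (log2 fold change 0.87, adjusted p of 9.16e-06, limma). SNAP29 had 6.70, 6.80 and 6.16 FPKM in DMSO and 13.0, 12.0 and 12.7 FPKM in PD (log2 fold change 0.84). ZFYVE1 had 1.16, 1.55 and 1.37 FPKM in DMSO and 3.29, 3.28 and 2.84 FPKM in PD (log2 fold change 0.81). In each of these genes the groups were far apart relative to their spread. The HOPS tethering genes VPS16 (0.66), VPS18 (0.64), VPS41 (0.45), VPS39 (0.33) and VPS33A (0.30) were higher as well, and VPS11 was not called (0.08, adjusted p of 0.312, limma). HOPS genes were singled out after their values had been seen. The largest falls were those of PHB2, a mitophagy receptor of the inner mitochondrial membrane, WDR45B, a WIPI relative, and SEC62, a receptor for the endoplasmic reticulum, with log2 fold changes of -0.35, -0.33 and -0.23. SEC62 overlapped between groups, and its call was lost without PD replicate 2 or 3 or DMSO replicate 1 or 2 (adjusted p of 0.0977 to 0.108).

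Of 29 upstream regulators, all of them tested, 11 were higher (37.9%) and 6 were lower (20.7%) in PD, near the 31.9% and 26.2% of all tested genes, and the median log2 fold change was 0.07. Under upper-quartile scaling 7 were higher and 9 were lower. SESN3, a sestrin that restrains mTORC1, had 1.48, 1.73 and 1.53 FPKM in DMSO and 7.87, 6.97 and 6.52 FPKM in PD. This was the sole regulator past 2-fold on the log2(FPKM + 1) scale, with a log2 fold change of 1.65 and a 4.51-fold rise of the mean FPKM (adjusted p of 5.98e-06, limma). CAMKK2, a kinase that activates AMPK, rose by 0.69 and SESN1 by 0.58 on the same scale. The largest falls were those of MITF, a relative of TFEB, of NFE2L2, which encodes NRF2, and of RPTOR, the scaffold of mTORC1. MITF had 10.5, 11.5 and 10.2 FPKM in DMSO and 5.29, 4.55 and 4.76 FPKM in PD (log2 fold change -0.999 on the FPKM + 1 scale, and a ratio of mean FPKM of 0.454). NFE2L2 had 28.8, 30.5 and 29.6 FPKM in DMSO and 16.7, 14.9 and 15.2 FPKM in PD (log2 fold change -0.88). Its exons, of 14975 bases, share 3710 bases with genes on the opposite strand and 2037 with a gene on the same strand. The values of NFE2L2 are less certain for that reason. RPTOR had 8.34, 8.07 and 8.73 FPKM in DMSO and 5.83, 5.89 and 5.75 FPKM in PD (log2 fold change -0.46). The transcripts of TFEB and TFE3, the main transcription factors for lysosomal and autophagy genes, were not called, at means of 2.26 and 1.98 FPKM for TFEB and 25.8 and 26.7 FPKM for TFE3 in DMSO and PD. ATF4, at 189 FPKM in DMSO and 185 FPKM in PD, was not called either, and FOXO3 was higher by 0.29. These 4 genes were singled out after their values had been seen.

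**Figure D5:**
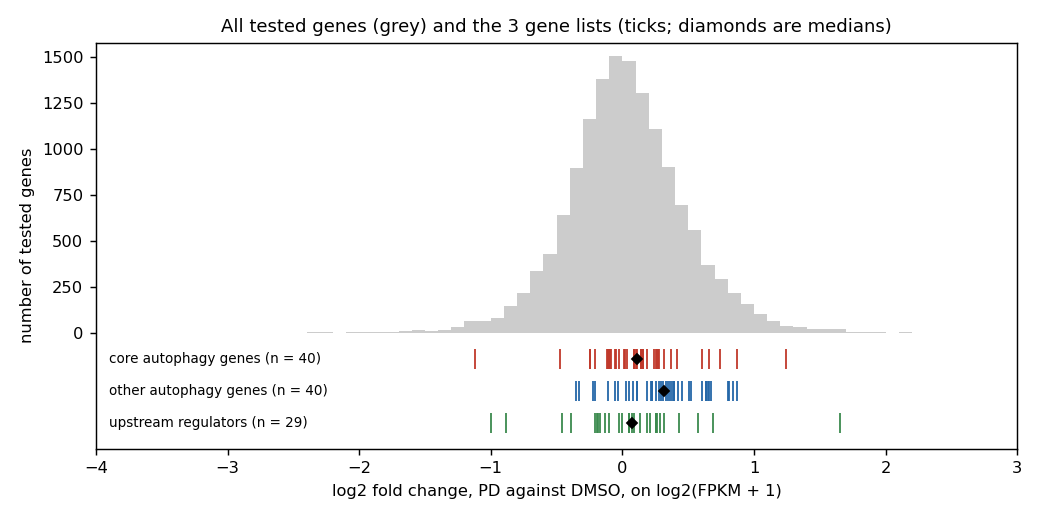
Distribution of log2 fold changes (PD against DMSO on log2(FPKM + 1)) over the 14400 tested genes, with the core autophagy genes, the other autophagy genes and the upstream regulators as ticks below it and list medians as diamonds. The medians are 0.11, 0.32 and 0.07, and SESN3 (1.65) lies farthest to the right among the listed genes.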

How the data were processed

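Total RNA of 6 HepG2 dishes was sequenced by the authors from poly(A)-selected libraries made with the NEBNext Ultra kit. According to the methods and the submitters' processing notes, reads were aligned to hg38 with HISAT2 and counted with HTSeq 0.6.0, and the authors deposited FPKM, 1 column per library. The gene annotation and the strand setting are not given in the sources used here. The test had been planned for FPKM, with counts as the other case. Genes averaging 0.5 FPKM or more were fitted as log2(FPKM + 1), with treatment as the only term, in limma 3.58.1 (R 4.3.3, variance trend on), and p-values were adjusted by Benjamini-Hochberg over all 14400. An exact permutation test of 3 against 3 cannot give a two-sided p below 0.10, so none was used for a call.

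Whole fragments were worked back from the FPKM within 0.01 fragments: 13420 genes by the GENCODE exon length and 15143 by a common step. They served for depth and for voom (at least 10 fragments in 3 or more libraries). Other alternatives were a pseudocount of 0.1, no filter, median-of-ratios and upper-quartile scaling, a block for the replicate number, and fits without each library in turn. The fits were also run on simulated fragments with the same assumed dispersion (0.003) for every gene, and no result here rests on that run. The members, gene lists and alternatives were chosen with earlier results of these data known. By rule, all 41 members are named, with values in every library for ATG8 genes, receptors, members past 2-fold and the largest called rise and fall of each other role group, and the 3 largest rises and falls of the other lists are named. Further library values were added after they had been seen. Chi-square per gene was 2.30 to 3.77 within groups, so no library was a duplicate.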

Additional observations from a re-analysis of the deposited data

How the results depend on the processing

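Of the 21 called core autophagy genes, 15 kept their call and direction under all 12 alternatives, 6 lost it under at least 1 (PIK3C3, WIPI2, ATG3, ATG4B, NBR1 and TAX1BP1), and none reversed. Over the 6 fits without 1 library, 13 to 16 core genes were higher and 3 to 6 were lower, the lower count being 3 without PD replicate 2 or DMSO replicate 2. The counts past 2-fold were 1 and 1 under every alternative. Among the other autophagy genes, 26 to 28 were higher and 2 to 5 were lower when a library was left out, and 3 were lower with no filter on FPKM. Their counts under upper-quartile scaling were 24 higher and 7 lower, against 28 and 5. Upper-quartile scaling gave 7 upstream regulators as higher, and moved the share of higher genes among all called genes from 54.8% to 44.8%. The number of all genes past 2-fold was the most dependent on the handling of low values, with 698 higher and 550 lower at a pseudocount of 0.1 and 1012 and 721 by voom on fragments, against 294 and 226; the pseudocount of 1 shrinks low genes by construction.

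The replicate numbers did not pair the libraries, since same-numbered PD and DMSO libraries had correlations of their deviations of -0.027, -0.00462 and 0.0898. With the replicate block, 15 core genes were higher and 4 were lower, with PIK3C3, NBR1, ATG3 and ATG4B no longer called (adjusted p of 0.0705 to 0.0877, limma) and ATG4C (0.013) and STX17 (0.0491) called higher. In the same fit, 4414 of all genes were higher and 3618 were lower, against 4588 and 3780. Not every library correlated best with its own number. Depth limits GABARAP, with 3 to 6 fragments, and counting error is also larger for MAP1LC3A, which had as few as 74 fragments.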
